A study of Mus musculus with 15 samples.

Results

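The kidney carries out both directions of glucose metabolism, and 9 enzyme genes of these routes were examined among the 54532 genes of a kidney RNA-seq table from 15 mice. The members were the rows whose Ensembl identifier belongs, in the GRCm38 annotation, to Pck1, G6pc, Fbp1, Pcx and Khk, which serve glucose production and fructose use, or to Hk1, Hk2, Pkm and Ldha, which serve glucose breakdown. All 9 had exactly one row each, and all 9 passed the filter on low values in each of the 3 comparisons.

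The mice were male C57BL/6, 8 weeks old at the start, with 5 mice in each of 3 groups. Group C received a normal diet. Group M received chow with 0.25% adenine, which injures the tubules and leaves a fibrotic kidney, for 4 weeks and then a standard diet until week 8. Group AA had the same adenine course and 30 mg/kg of asiatic acid, a plant triterpenoid, by daily gavage for all 8 weeks. Mice of C and M were gavaged with the vehicle, 1% DMSO in saline, so that gavage and vehicle were common to all groups. Each library came from kidney tissue of one mouse.

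Glucose is made from lactate, amino acids and glycerol by reversing most steps of glycolysis, with separate enzymes at the irreversible steps. In the kidney this capacity lies in the proximal tubule, the segment that also reabsorbs filtered glucose and metabolises fructose, and that burns mostly fatty acids and lactate. Segments further down the nephron, and inflammatory and scar-forming cells, break down glucose instead. The gluconeogenic genes therefore mark tubule function as well as a metabolic route, and the hexokinase, pyruvate kinase and lactate dehydrogenase genes are carried by many cell types.

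The promoters of 6 of the members are shown, those whose first promoter held an HNF1 half-site or a hypoxia response core. Each is the 250 bases before the RefSeq transcription start on GRCm38.p6, written 5′ to 3′ on the gene's own strand, with every match to a searched motif in capitals.
Pck1 (chr2:173152823-173153072, plus strand): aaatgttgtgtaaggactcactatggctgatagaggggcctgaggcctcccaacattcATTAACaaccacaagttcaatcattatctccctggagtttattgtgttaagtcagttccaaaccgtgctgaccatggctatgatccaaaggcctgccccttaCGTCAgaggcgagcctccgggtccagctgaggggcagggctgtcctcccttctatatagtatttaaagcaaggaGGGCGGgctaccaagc
G6pc (chr11:101367466-101367715, plus strand): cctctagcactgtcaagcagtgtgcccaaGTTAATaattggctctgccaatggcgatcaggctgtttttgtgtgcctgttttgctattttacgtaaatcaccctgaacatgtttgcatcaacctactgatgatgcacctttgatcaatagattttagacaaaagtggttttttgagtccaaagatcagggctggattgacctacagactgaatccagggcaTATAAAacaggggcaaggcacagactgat
Pcx (chr19:4510222-4510471, plus strand): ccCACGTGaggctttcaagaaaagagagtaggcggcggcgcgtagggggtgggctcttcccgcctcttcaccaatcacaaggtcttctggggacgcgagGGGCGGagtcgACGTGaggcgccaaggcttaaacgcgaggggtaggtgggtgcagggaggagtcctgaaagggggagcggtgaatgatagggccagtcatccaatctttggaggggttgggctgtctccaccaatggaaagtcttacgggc
Khk (chr5:30921309-30921558, plus strand): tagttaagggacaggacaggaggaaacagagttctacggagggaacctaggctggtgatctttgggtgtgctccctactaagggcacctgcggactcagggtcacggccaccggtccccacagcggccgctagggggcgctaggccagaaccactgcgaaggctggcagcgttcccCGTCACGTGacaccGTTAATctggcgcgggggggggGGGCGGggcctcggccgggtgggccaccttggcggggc
Hk2 (chr6:82774455-82774704, minus strand): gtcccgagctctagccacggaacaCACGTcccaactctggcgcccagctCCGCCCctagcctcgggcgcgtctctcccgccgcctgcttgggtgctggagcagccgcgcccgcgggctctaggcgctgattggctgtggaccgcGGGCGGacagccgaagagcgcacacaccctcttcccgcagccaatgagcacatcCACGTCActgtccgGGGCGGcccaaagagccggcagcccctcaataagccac
Ldha (chr7:46845554-46845803, plus strand): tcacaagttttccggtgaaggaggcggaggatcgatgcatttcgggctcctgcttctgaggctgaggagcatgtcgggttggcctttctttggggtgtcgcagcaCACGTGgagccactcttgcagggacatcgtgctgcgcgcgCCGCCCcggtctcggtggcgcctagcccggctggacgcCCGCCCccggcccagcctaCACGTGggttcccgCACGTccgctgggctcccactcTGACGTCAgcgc

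The motifs searched on both strands were the CRE half-site TGACG, the HNF4 core AAAGTCC, the HNF1 half-site GTTAAT, the hypoxia response core ACGTG, the E-box CACGTG, which contains ACGTG, the TATA box TATAAA and the GC box GGGCGG. The HNF1 half-site occurred in 3 of the 9 first promoters, those of Pck1, G6pc and Khk, and in 6.43% of all 32851 promoters of this length. The hypoxia response core was present in Pcx, Khk, Hk2 and Ldha, 4 of 9, against 16.6% of all promoters. In Pcx, Khk and Ldha some of these matches lie inside the E-box, which 6.02% of all promoters held. A CRE half-site was found in 4 of 9 members against 17.8%, and a GC box in 7 of 9 against 32.7%. The G6pc promoter was the 1 member promoter with TATAAA, which starts 29 bases before the RefSeq start and occurred in 12.4% of all promoters. None of the 9 windows held the 7 letters searched for HNF4, which 3.58% of all promoters held. These matches are letters in a window and say nothing about binding.

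The libraries differed in ways that bear on every value below. Counted units recovered from the FPKM steps summed to 6951358 to 13576597 over nuclear genes in C, 2077628 to 7142897 in M and 2225764 to 4271191 in AA, while mitochondrial transcripts took 53% to 62.5%, 64% to 86.8% and 69.2% to 87.2% of all units. M mice 1 to 3 stood apart from M mice 4 and 5, with 10068 to 12222 genes above 0 against 23040 and 25460, and M mice 2 and 3 held Xist at 2.55 and 1.45 FPKM although the labels give males. Xist was at most 0.119 FPKM in the other 13 libraries, and the Y-linked gene Ddx3y was at 1.63 FPKM or more in all 15. The calls of members, of other pathway genes and of regulators that rest on M are therefore also given for these 2 sets of mice. Those of the cell type markers are given for all M mice only. The labelled tissue held its defining markers, since all 15 proximal tubule markers were above 0 in every C library, but 8 of them were listed at 0 in M mouse 2. In bulk kidney RNA, fewer cells of a type and less RNA per cell cannot be told apart.

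M vs. C asks what the adenine diet left in the kidney 4 weeks after it was withdrawn. Pyruvate carboxylase (Pcx) and ketohexokinase (Khk) fell, by 2.40 and 2.46 on the log2(FPKM + 1) scale, and the other 3 gluconeogenic genes also had lower fitted levels without passing the test. Of the glycolytic genes none was called, and the fitted differences of Hk2, Pkm and Ldha were above 0. Called here means an adjusted p of at most 0.05 from limma with Benjamini-Hochberg adjustment over all genes tested and an absolute log2 fold change of at least 1. So 2 of 9 members were called, both lower, against 1.38% of 21153 genes called and 1.11% called lower.

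**Figure D1:**
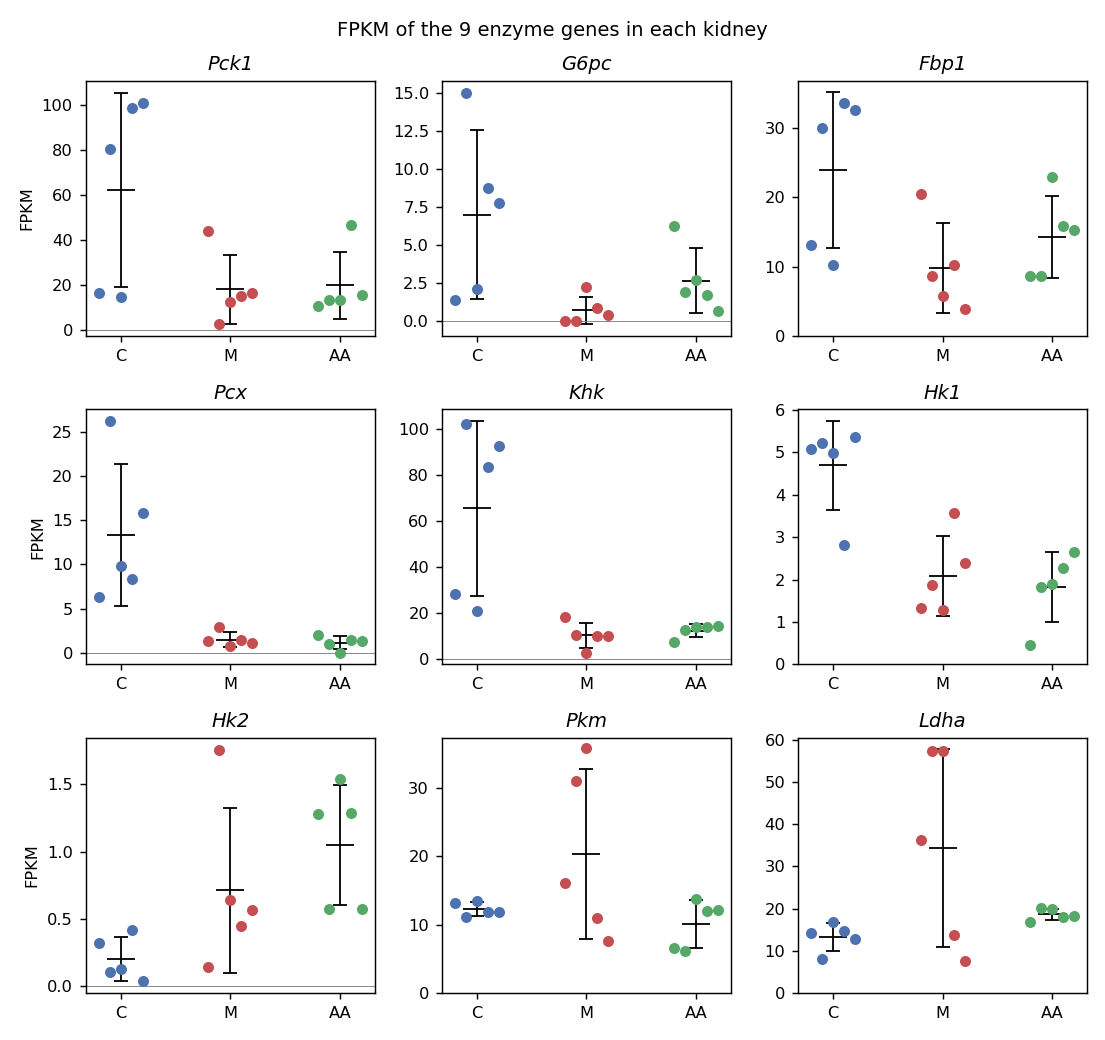
FPKM (y axis, linear, a separate scale per gene) of the 9 genes in each of the 15 kidneys, by group (x axis), with points for mice 1 to 5 from left to right and black lines for the mean ± SD (n = 5). All 5 C kidneys lie above all M and AA kidneys for Pcx and Khk, while Pkm and Ldha are highest in M mice 2 and 3 and stay within or below the C range in M mice 4 and 5.

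Pcx (chr19:4510472-4621752, plus strand) encodes the mitochondrial enzyme that turns pyruvate into oxaloacetate, the first step of glucose synthesis from lactate and pyruvate. Its FPKM was 6.31, 26.2, 9.77, 8.40 and 15.8 in C, listed from mouse 1 to mouse 5 here and throughout, and 1.34, 2.89, 0.762, 1.46 and 1.08 in M. The lowest C kidney stood above the highest M kidney, so the groups did not overlap, as was the case in this direction for 3.67% of all genes, and C mouse 2 was the highest of all 15. The fitted change was -2.40 ± 0.38 (SE, limma adjusted p = 0.0182), a 5.28-fold lower FPKM + 1. With M mice 1 to 3 alone it was -2.34 (limma adjusted p = 0.00515), and M mice 4 and 5 alone gave -2.49, as large but without a call in that smaller fit (limma adjusted p = 0.102).

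Khk (chr5:30921431-30931248, plus strand) encodes the kinase that commits fructose to metabolism, and the proximal tubule is one of its main sites outside the liver. It was the most abundant member in C by median, with 28.2, 102, 21.1, 83.3 and 92.5 FPKM in mice 1 to 5. The M kidneys had 18.4, 10.4, 2.83, 10.3 and 9.98 FPKM. C mice 1 and 3 were well below the other C kidneys, yet still above every M kidney. The fitted change was -2.46 ± 0.53 (limma adjusted p = 0.0407). It was -2.55 with M mice 1 to 3 alone (limma adjusted p = 0.0157) and -2.32 with M mice 4 and 5 alone (limma adjusted p = 0.181). This call was kept in 3 of the 10 fits that left out 1 library, with adjusted p from 0.0306 to 0.123 by limma, so the direction was steadier than the call.

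Pck1 (chr2:173153048-173159273, plus strand), the cytosolic phosphoenolpyruvate carboxykinase and the rate-setting enzyme of gluconeogenesis, had 16.5, 80.7, 14.9, 98.7 and 101 FPKM in C. In M it had 44.1, 2.57, 12.6, 15 and 16.5 FPKM. Here the groups overlapped, because C mice 1 and 3 were in the range of the M kidneys and M mouse 1 was above those 2 C kidneys. The fitted difference was -1.71 ± 0.71 (limma adjusted p = 0.255), and neither set of M mice alone gave a call (-1.86 and -1.49).

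G6pc (chr11:101367561-101377903, plus strand) encodes the glucose-6-phosphatase that releases free glucose, the last step of the route. It was present in all C kidneys at 1.37, 15, 2.08, 8.71 and 7.76 FPKM. In M it was listed at 0 in mice 1 and 2 and stood at 2.20, 0.819 and 0.398 FPKM in mice 3, 4 and 5. M mouse 3 was above the 2 lowest C kidneys, and the difference of -2.05 ± 0.53 did not pass the threshold (limma adjusted p = 0.08). With M mice 1 to 3 alone G6pc was called, at -2.10 (limma adjusted p = 0.0341), and M mice 4 and 5 alone gave -1.98 (limma adjusted p = 0.285).

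Fbp1 (chr13:62864753-62888282, minus strand), the fructose-1,6-bisphosphatase that bypasses phosphofructokinase, had 13.1, 30.0, 10.3, 33.6 and 32.6 FPKM in C and 20.5, 8.72, 5.80, 10.2 and 3.93 FPKM in M. M mouse 1 lay above C mice 1 and 3. Fbp1 had the smallest fitted difference of the 5, -1.24 ± 0.45 (limma adjusted p = 0.202), and neither set of M mice alone gave a call (limma adjusted p = 0.138 for M mice 1 to 3 and 0.273 for M mice 4 and 5). All 5 genes of glucose production and fructose use thus had a log2 fold change below 0, with a median of -2.05 against -0.12 over all genes tested. Each of the 5 also had an unadjusted p under 0.05, as did 16.5% of all genes, and none of the 5 turned in sign under any of the 26 other settings or left-out libraries.

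The glycolytic genes did not share one direction. Hk1 (chr10:62268855-62379908, minus strand), the widely expressed hexokinase bound to mitochondria, had 5.08, 5.21, 4.97, 2.82 and 5.36 FPKM in C against 1.33, 1.88, 1.28, 3.56 and 2.38 FPKM in M. Only M mouse 4 exceeded a C kidney, C mouse 4. The fitted difference was -0.91 ± 0.29 (limma adjusted p = 0.147). It was called lower with M mice 1 to 3 alone (-1.17, limma adjusted p = 0.0131) and on the TPM scale (-1.81, limma adjusted p = 0.0354), whereas M mice 4 and 5 alone gave -0.51 (limma adjusted p = 0.567).

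Hk2 (chr6:82725025-82774454, minus strand), the inducible hexokinase of muscle, fat and growing cells, was the lowest member in C, with 0.323, 0.108, 0.124, 0.416 and 0.035 FPKM. In M it stood at 0.144, 1.76, 0.641, 0.446 and 0.564 FPKM. The difference was 0.46 ± 0.22 (limma adjusted p = 0.328; 0.54 and 0.33 for the 2 sets of M mice), and it rests on 7 to 84 counted units per C library, which limits its precision.

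Ldha (chr7:46841475-46855627, plus strand), the lactate dehydrogenase chain that favours lactate formation, had 14.3, 7.98, 16.9, 14.8 and 12.8 FPKM in C. In M mice 1 to 3 it had 36.3, 57.4 and 57.4 FPKM, against 13.7 and 7.64 FPKM in M mice 4 and 5, which lay within the C range or below it. Pkm (chr9:59656368-59679375, plus strand), the pyruvate kinase of most tissues other than liver, had 13.2, 11.1, 13.4, 11.8 and 11.8 FPKM in C and split in the same way. It stood at 16.1, 31 and 35.8 FPKM in M mice 1 to 3 and at 11.0 and 7.55 FPKM in M mice 4 and 5.

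Over all 5 M kidneys the differences were 0.98 ± 0.51 for Ldha and 0.47 ± 0.39 for Pkm (limma adjusted p = 0.355 and 0.573). With M mice 1 to 3 alone they were 1.85 and 1.04 (limma adjusted p = 0.00301 and 0.0268), and M mice 4 and 5 alone gave -0.31 and -0.39 (limma adjusted p = 0.817 and 0.644). The direction of both genes in M thus turned with the set of mice. When FPKM was rescaled to TPM, the difference of Pkm turned to -0.51 and that of Ldha came to 3.4e-05. With nuclear genes brought to the same total the differences were 0.57 for Pkm and 1.10 for Ldha, and with quantile scaling 0.57 and 0.98. M mice 1 to 3 are the 3 libraries with the fewest genes above 0, and the part of that in these values was not tested. Of the 31-base words in the exons of Pkm and Ldha, 34.7% and 19.6% also occur in other genes, so their counts depend on how shared reads were assigned.

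**Figure D2:**
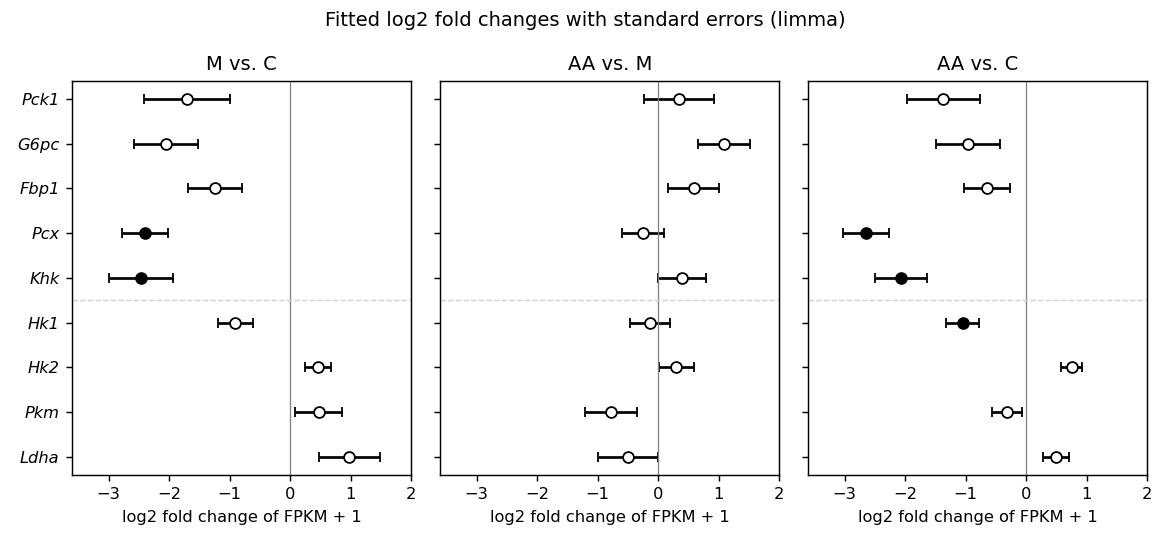
Fitted log2 fold change of FPKM + 1 (x axis) with its standard error for the 9 genes (y axis) in the 3 comparisons, from limma fits of 10 libraries each; filled points were called. The dashed line divides the 5 gluconeogenic and fructose genes from the 4 glycolytic genes, and AA vs. M is the panel without filled points.

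AA vs. M asks whether asiatic acid changed these genes in adenine-fed mice. None of the 9 members was called, against 12.8% of 19798 genes, 11.7% higher and 1.07% lower, and in none did the 2 groups separate completely, as they did for 13.2% of genes. One member, G6pc, had an unadjusted p under 0.05, against 32.1% of all genes. This comparison shares the M libraries with M vs. C, so the values below stand beside the first comparison and do not add to it.

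G6pc came nearest to a call. The AA kidneys had 6.21, 1.93, 2.71, 1.73 and 0.643 FPKM, and M mouse 3, at 2.20 FPKM, was above 3 of them. The fitted difference was 1.09 ± 0.43 (limma adjusted p = 0.0951), and it was called when AA mouse 5, the lowest of the group, was left out (1.33, limma adjusted p = 0.0488).

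Khk stood at 7.68, 12.6, 14.0, 13.9 and 14.3 FPKM in AA, inside the range of M, with a difference of 0.39 ± 0.40 (limma adjusted p = 0.548). Pcx stood at 2.07, 1.00, 0, 1.41 and 1.29 FPKM, also without a sign of higher levels than in M (-0.25 ± 0.35, limma adjusted p = 0.658). In AA mouse 3 Pcx was listed at 0, while the other 4 AA kidneys had 43 to 138 counted units of it.

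Pck1 had 10.8, 13.6, 13.3, 46.6 and 15.8 FPKM in AA, and the single high kidney, AA mouse 4, matched M mouse 1 in standing above its group. The difference was 0.34 ± 0.58 (limma adjusted p = 0.734), and it turned to -0.0096 without AA mouse 4. Fbp1 had 8.71, 8.66, 22.9, 15.8 and 15.3 FPKM in AA, a difference of 0.59 ± 0.42 (limma adjusted p = 0.357). Over the 5 genes the median log2 fold change was 0.39, against 0.17 over all genes tested.

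For Ldha and Pkm the AA kidneys were more alike than the M kidneys. For Hk1 the SD was 0.83 FPKM in AA and 0.94 FPKM in M, but 0.52 and 0.41 on the log2(FPKM + 1) scale. Ldha lay between 16.9 and 20.1 FPKM in AA and between 7.64 and 57.4 FPKM in M, and Pkm between 6.16 and 13.8 FPKM against 7.55 to 35.8 FPKM. The differences were -0.50 ± 0.50 for Ldha and -0.78 ± 0.43 for Pkm (limma adjusted p = 0.528 and 0.231). Both were called lower against M mice 1 to 3 alone, each at -1.36 (limma adjusted p = 0.00322 for Ldha and 0.016 for Pkm), whereas the same differences from M mice 4 and 5 alone were 0.80 and 0.071. Hk1 and Hk2 differed by -0.14 ± 0.33 and 0.30 ± 0.29 (limma adjusted p = 0.808 and 0.522).

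AA vs. C asks how far the treated kidneys stood from those of normal-diet mice. Pcx, Khk and Hk1 fell, which is 3 of 9 members, against 9.61% of 21898 genes called lower and 19.8% called in either direction. In 3 members AA was lower than C with no overlap, against 12.5% of genes, and in 2 members, Hk2 and Ldha, AA was higher with no overlap, against 11.5% of genes. In all, 6 members had an unadjusted p under 0.05, against 46.8% of genes, and the C libraries are those of M vs. C.

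The fall of Pcx was -2.65 ± 0.38 (limma adjusted p = 0.000632) and that of Khk -2.07 ± 0.43 (limma adjusted p = 0.00388). Both were called in all 10 fits that left out 1 library and in all 14 other settings. The lowest C kidneys, at 6.31 FPKM of Pcx and 21.1 FPKM of Khk, stood above the highest AA kidneys, at 2.07 and 14.3 FPKM. Mean FPKM of Khk was 65.4 ± 37.8 (SD, n = 5) in C, 10.4 ± 5.52 in M and 12.5 ± 2.77 in AA, so the spread was much narrower in AA.

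Hk1 fell by 1.05 ± 0.27 on the log2 scale (limma adjusted p = 0.011). The AA kidneys had 0.465, 1.82, 1.90, 2.27 and 2.66 FPKM, and the highest was still below the lowest C kidney at 2.82 FPKM. Without AA mouse 1 the difference was -0.83, below the size asked for a call (limma adjusted p = 0.0169).

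Hk2 went the other way. Its AA values were 1.28, 0.576, 1.54, 1.29 and 0.572 FPKM, all above the highest C kidney at 0.416 FPKM, and the mean was 1.05 ± 0.448 FPKM in AA against 0.201 ± 0.161 in C (SD, n = 5). The difference of 0.75 ± 0.18 passed the adjusted p (limma adjusted p = 0.00832), which 35.9% of genes passed, but not the size of 1, which a pseudocount of 1 keeps small for a gene this low. With a pseudocount of 0.1 it was 2.00 (limma adjusted p = 0.00997), and on the TPM scale 0.62 (limma adjusted p = 0.114).

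As a share of the summed FPKM of Hk1 and Hk2, a measure chosen after these values were seen, Hk2 made up 5.98%, 2.04%, 2.43%, 12.8% and 0.65% in C. In M the share was 9.77%, 48.3%, 33.4%, 11.1% and 19.1%, and in AA 73.4%, 24%, 44.8%, 36.1% and 17.7%. AA and C did not overlap, while M overlapped both. The highest share, in AA mouse 1, belongs to the kidney with the lowest Hk1 of all 15.

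**Figure D3:**
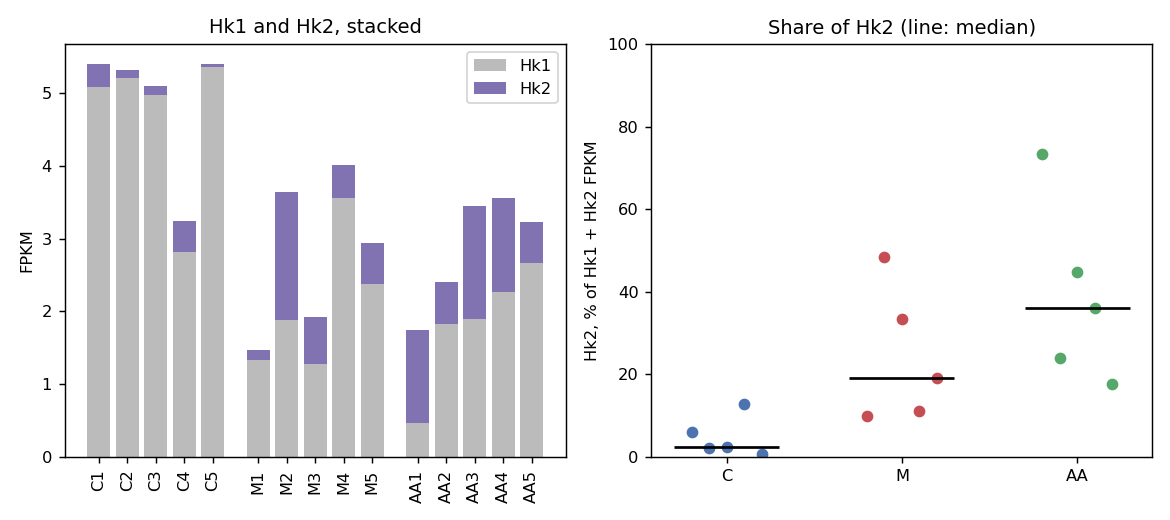
Left, FPKM of Hk1 (grey) and Hk2 (purple) stacked for each of the 15 kidneys; right, Hk2 as a percentage of their sum in each kidney by group, with the group median as a line. The medians are 2.43% in C, 19.1% in M and 36.1% in AA, and each kidney is one point.

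Ldha in AA had 16.9, 20.1, 19.8, 18.1 and 18.2 FPKM. The lowest, 16.95 FPKM, was just above the highest C kidney at 16.94 FPKM, so the separation is one of hundredths. The difference was 0.49 ± 0.22 (limma adjusted p = 0.102), and it turned to -0.57 on the TPM scale. Pkm in AA had 6.50, 6.16, 13.8, 12.0 and 12.1 FPKM and differed by -0.32 ± 0.25 (limma adjusted p = 0.33). Pck1, G6pc and Fbp1 had fitted differences of -1.37, -0.96 and -0.65 (limma adjusted p = 0.0893, 0.17 and 0.199), and in each the AA kidneys overlapped C mice 1 and 3.

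The order of the 9 genes by median FPKM, a length-scaled level, differed between the groups. In C it ran Khk, Pck1, Fbp1, Ldha, Pkm, Pcx, G6pc, Hk1, Hk2, from 83.3 to 0.124 FPKM, with the first 3 places held by genes of glucose production and fructose use. In M it ran Ldha, Pkm, Pck1, Khk, Fbp1, Hk1, Pcx, Hk2, G6pc, from 36.3 to 0.398 FPKM, and in AA Ldha, Fbp1, Khk, Pck1, Pkm, G6pc, Hk1, Pcx, Hk2, from 18.2 to 1.28 FPKM. The ranges of neighbours in these orders overlapped, except between Hk1 and Hk2 in C and between Fbp1 and Hk1 in M. Pcx and Hk2 illustrate the compression at the low end, since their medians were 9.77 and 0.124 FPKM in C but 1.29 and 1.28 FPKM in AA.

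Because the libraries differ in depth and scaling, the gluconeogenic and fructose genes were also set against the glycolytic genes inside each kidney, as the mean log2(FPKM + 1) of the 5 minus that of the 4. This difference was 0.69, 2.96, 0.71, 2.41 and 2.55 in C. It was 0.40, -1.35, -1.05, 0.08 and 0.13 in M and 0.68, 0.34, 0.06, 0.54 and 0.16 in AA. Every C kidney lay above every M and AA kidney, although C mouse 1 and AA mouse 1 were 0.69 and 0.68. This separation was lost with a pseudocount of 0.1, where AA mouse 1 was 1.05 and C mouse 1 0.99. It was also lost with list medians in place of means, where all AA kidneys (1.07 to 1.19) and M mouse 1 (1.62) were above C mice 1 and 3 (0.60 and 0.29).

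The group means were 1.87 ± 1.08 in C, -0.36 ± 0.79 in M and 0.36 ± 0.26 in AA (SD, n = 5). No test was made on this score, since its genes were chosen with results known. The mean of the 4 glycolytic genes alone was 2.57 ± 0.13, 2.82 ± 0.53 and 2.54 ± 0.25 in C, M and AA, so most of the contrast with C came from the 5 gluconeogenic and fructose genes, at 4.43 ± 0.96, 2.46 ± 0.40 and 2.89 ± 0.21. With those list medians, AA minus C shrank from -1.51 to -0.30.

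**Figure D4:**
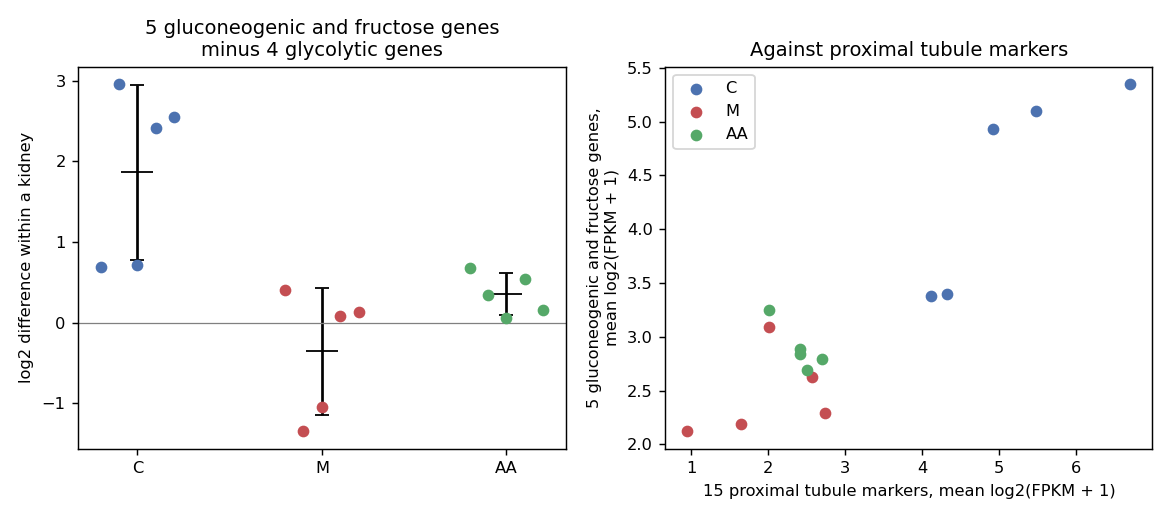
Left, the log2 difference within each kidney between the 5 gluconeogenic and fructose genes and the 4 glycolytic genes, by group, with the mean ± SD (n = 5) in black; right, the mean log2(FPKM + 1) of those 5 genes (y axis) against that of 15 proximal tubule markers (x axis), one point per kidney. On the right the C kidneys lie at marker means of 4.12 or more and the M and AA kidneys at 2.74 or less, with no kidney between them.

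Markers of the proximal tubule, where the gluconeogenic genes are used, were also lower in M and AA than in C. Of 15 markers, 11 were called lower in M vs. C, against 1.11% of all genes, and 12 in AA vs. C, against 9.61%. Their median log2 fold changes were -3.29 and -3.22. In AA vs. M 0 were called by limma, against 12.8% of all genes, and 2 had an unadjusted p under 0.05, against 32.1%. The summed FPKM of the 15 markers ranged from 3220 to 13700 in C, 93.8 to 560 in M and 179 to 586 in AA. M mouse 2 had 8 of the 15 listed at 0 and M mice 1 and 3 had 2 and 3, while M mice 4 and 5 had none at 0. The glucose transporter Slc5a2 was listed at 0 in 2 M and 2 AA kidneys and the anion transporter Slc22a6 in 2 M kidneys, whereas the phosphate transporter Slc34a1 was above 0 in all 15 kidneys.

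On average the 5 member genes were lower than these markers in C and higher in M and AA, with C mouse 4 (4.93 against 4.92) and M mouse 5 (2.29 against 2.74) as exceptions. Their mean log2 minus the marker mean was -0.68 ± 0.52 in C, 0.48 ± 0.69 in M and 0.48 ± 0.45 in AA (SD, n = 5). In M and AA the markers thus differed from C by more than the 5 genes did, while between M and AA this mean was the same. C mice 1 and 3, which had the lowest Pck1, Khk, Fbp1 and G6pc of the group, also had the 2 lowest marker means, 4.12 and 4.32, and Aqp2, the water channel of the collecting duct, at 255 and 437 FPKM against 20.6 to 29.6 in the other 3 C kidneys. Within M and AA the 5 genes did not follow the markers in every kidney. M mouse 1 had the highest mean of the 5 genes in M, 3.09, at a marker mean of 2.01. M mouse 5 had the highest marker mean in M. AA mouse 4 had the highest mean of the 5 genes in AA, 3.25, and the lowest marker mean, 2.01. The part of the tubule markers and of Aqp2 in the member values was not tested.

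Other cell types moved as well. Of 16 leukocyte and macrophage markers, 5 were called higher in M vs. C, against 0.269% of all genes, and 8 in AA vs. C, against 10.2%, where 1, Csf1r, was called lower. In AA vs. M the list went both ways, with Cd3e and Cd3g called higher, against 11.7% of all genes, and C1qb lower, against 1.07%. Their summed FPKM was 365, 462 and 494 in M mice 1 to 3, the kidneys with the most Ldha, against 182 and 202 in M mice 4 and 5, 133 to 208 in AA and 21.6 to 144 in C. This split of the M kidneys was absent from the mean log2(FPKM + 1) of the 16 markers. That mean was 2.45, 2.88, 3.06, 2.64 and 2.97 in M mice 1 to 5. Of 10 fibroblast and myofibroblast markers, 1 was called higher in M vs. C, against 0.269% of all genes, and 8 were in AA vs. C, against 10.2%. In AA vs. M 1 was called higher, Col1a1 (1.45 ± 0.46, limma adjusted p = 0.0433), against 11.7% of all genes. In that comparison 7 of the 10 had a log2 fold change above 0 and 3 below. Distal nephron markers were called lower in 3 of 11 tested genes in M vs. C, against 1.11% of all genes, and 4 of 11 in AA vs. C, against 9.61%. In AA vs. M 1 of 11 was called higher, against 11.7% of all genes. Adipocyte markers, of interest because fat also expresses Pck1, summed to 43.9 FPKM in AA mouse 4, the AA kidney with the most Pck1, against 9.53 to 15.7 FPKM in the other AA kidneys. In C they summed to 16.2, 5.84, 26.3, 108 and 10.7 FPKM, in kidneys with 16.5, 80.7, 14.9, 98.7 and 101 FPKM of Pck1. In M they summed to 3.75 to 8.77 FPKM, the highest in M mouse 1, which had 44.1 FPKM of Pck1. In AA vs. M 2 of 6 tested adipocyte markers were called higher, against 11.7% of all genes. Hepatocyte markers, which matter because the liver also makes glucose, summed to 21.1 FPKM or less in every kidney, and none of them was listed above 0 in M mouse 2. The part of these cell types in the member values was not tested.

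The wider pathways were followed with 18 other genes of gluconeogenesis and fructose metabolism and 28 other glycolytic genes. In M vs. C, 17 of the first list were tested and all 17 had a log2 fold change below 0, as did 67.9% of all genes, with a median of -0.93 against -0.12 over all genes. One was called, against 1.11% of all genes called lower. It was the mitochondrial dicarboxylate carrier Slc25a10 (-2.36 ± 0.43, limma adjusted p = 0.0233), which fell from 13.7 to 48.1 FPKM in C to 1.47 to 7.16 FPKM in M. It was -2.57 with M mice 1 to 3 alone (limma adjusted p = 0.0054) and -2.04 with M mice 4 and 5 alone (limma adjusted p = 0.143).

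In AA vs. M, 1 of 17 tested genes of this list was called, and it was higher, against 11.7% of all genes called higher. Sorbitol dehydrogenase (Sord), which makes fructose from sorbitol upstream of Khk, rose by 1.32 ± 0.35 (limma adjusted p = 0.0202), with 42.7 to 85.6 FPKM in AA, 13.4 to 39.1 FPKM in M and 22.8 to 68.1 FPKM in C. The AA and M kidneys did not overlap for Sord, while the AA kidneys overlapped C. Sord was called against either set of M mice, at 1.21 and 1.48 (limma adjusted p = 0.0163 and 0.0429). So Sord was called in the comparison in which its downstream neighbour Khk was not, and the difference between the 2 genes was not tested.

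In AA vs. C the list had a median of -0.65 against 0.09 over all genes. None was called higher, against 10.2% of all genes, and 6 of 18 were called lower, against 9.61%. They included the triokinase Tkfc (-2.64 ± 0.51, limma adjusted p = 0.00269), which acts after Khk in fructose use. They also included G6pc3, a widely expressed glucose-6-phosphatase (-2.26 ± 0.24, limma adjusted p = 0.000165), and Slc37a4, the transporter that supplies glucose-6-phosphate to both phosphatases (-2.08 ± 0.45, limma adjusted p = 0.00464). The AA kidneys held 1.70 to 2.16 FPKM of G6pc3 against 8.81 to 20.3 FPKM in C, with no overlap.

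For the other glycolytic genes the median of 27 tested in M vs. C was -0.09 against -0.12 over all genes. The list mean of log2(FPKM + 1) was nonetheless 1.92 to 2.24 in C, 1.85 to 1.90 in M and 1.44 to 1.80 in AA. The genes went both ways in M vs. C, with 11 above 0 and 16 below. An unadjusted p under 0.05 by limma was found for 8, against 16.5% of all genes. In 4 genes M was lower with no overlap, against 3.67%. One was called, against 1.11% of all genes called lower. It was the muscle-type phosphoglycerate mutase Pgam2, which fell by 2.77 ± 0.53 (limma adjusted p = 0.0284), with -3.08 and -2.31 for M mice 1 to 3 and 4 and 5 alone (limma adjusted p = 0.00556 and 0.197). None of 26 was called in AA vs. M by limma, against 12.8% of all genes, and 3 had an unadjusted p under 0.05, against 32.1%. In AA vs. C, 7 of 27 were called lower, against 9.61% of all genes, and 0 higher, against 10.2%. Among the 7 were the enolase Eno3 (-3.01 ± 0.41, limma adjusted p = 0.000479) and the isomerase Gpi1 (-1.38 ± 0.27, limma adjusted p = 0.00295).

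Gapdh, listed at 0 in M mouse 1 and AA mice 1 and 2 and at 12.9 FPKM or less in all kidneys, was also among the 7 (-2.57 ± 0.33, limma adjusted p = 0.000333). It is a gene that every cell uses, and 28.06% of its 31-base words also occur in other genes, so its level depends on how shared reads were assigned. Pgk1 and Pgam1, named after their values were seen, split the M kidneys as Ldha and Pkm did. Pgk1 had 46.3, 32.3 and 45.9 FPKM in M mice 1 to 3 and 10.7 and 4.07 FPKM in M mice 4 and 5, and Pgam1 had 16.2, 41.7 and 34.9 against 7.69 and 3.32 FPKM. Of their 31-base words, 54.73% and 37.12% also occur in other genes, so the same limit holds for both. Gpi1, Eno3 and Gapdh of the same list split the other way. Gpi1 had 6.41, 8.41 and 9.13 FPKM in M mice 1 to 3 and 18.2 and 18 FPKM in M mice 4 and 5. Eno3 had 0.595, 0.881 and 5.38 against 8.59 and 14.9 FPKM, and Gapdh 0, 0.834 and 0.249 against 3.31 and 7.21 FPKM.

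**Figure D5:**
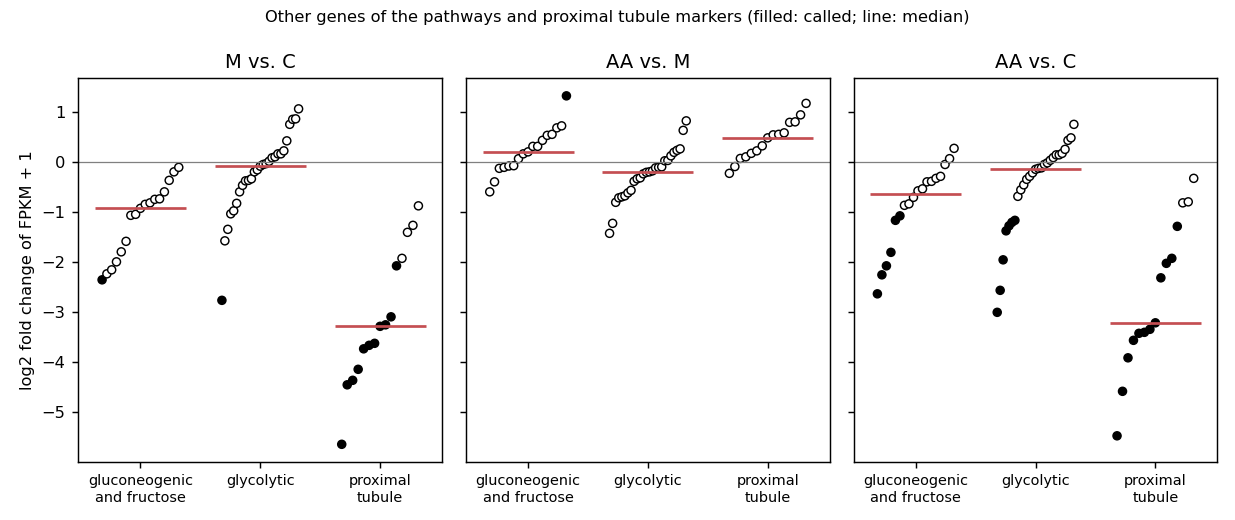
Fitted log2 fold change of FPKM + 1 (y axis) of the tested genes of 3 lists, the other gluconeogenic and fructose genes, the other glycolytic genes and the proximal tubule markers, in the 3 comparisons. Each point is a gene, filled where called, and red lines are list medians, which are -0.93, -0.09 and -3.29 in M vs. C and -0.65, -0.15 and -3.22 in AA vs. C.

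Of 14 transcriptional regulators of these routes, none was called in M vs. C by limma, against 1.38% of all genes. An unadjusted p under 0.05 by limma was found for 5 of them, against 16.5% of all genes. Hnf4a, the nuclear receptor that maintains proximal tubule and liver identity, had 9.18, 31, 8.51, 24.6 and 25 FPKM in C and 3.8, 0.912, 1.05, 9.37 and 7.60 FPKM in M (-2.05 ± 0.54, limma adjusted p = 0.0845). In AA vs. M it was the 1 regulator called of 13 tested, where 11.7% of all genes were called higher. Hnf4a rose by 1.79 ± 0.47 (limma adjusted p = 0.0195), to 11.9, 11.7, 18.5, 12.2 and 18.8 FPKM. All AA kidneys stood above all M kidneys for Hnf4a, although none of the 5 gluconeogenic and fructose members was called in that comparison. Against M mice 1 to 3 alone the difference was 2.52 (limma adjusted p = 0.000443). It was 0.69 and not called when M mice 4 and 5, at 9.37 and 7.60 FPKM, were the M kidneys compared (limma adjusted p = 0.201).

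Mlxipl, the carbohydrate-responsive factor also called ChREBP, was called lower in AA vs. C (-2.75 ± 0.45, limma adjusted p = 0.00124). It had 4.12 to 33.2 FPKM in C and 0.16 to 1.42 FPKM in AA. In M it was listed at 0 in mice 1 to 3 but stood at 2.76 and 6.98 FPKM in mice 4 and 5, above every AA kidney. Crtc2, a coactivator of CREB in fasting gluconeogenesis, also fell in AA vs. C (-1.21 ± 0.29, limma adjusted p = 0.00834). Myc differed by 1.41 ± 0.62 in M vs. C (limma adjusted p = 0.276), with 16.3 and 21.8 FPKM in M mice 2 and 3 and 2.30 FPKM or less in the other M kidneys.

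The genes whose levels followed Pck1 and Pkm most closely over the 15 kidneys were of different kinds. Among 6746 protein-coding genes above 0 in all kidneys, Pck1 was most like Ndrg2, Aldh2 and Ehhadh (Pearson r = 0.902, 0.897 and 0.893 of log2 FPKM + 1), of which Aldh2 and Ehhadh are enzymes of aldehyde and fatty acid oxidation. Pkm was most like Dnaja2, Bzw2 and Hnrnpa1 (r = 0.930, 0.912 and 0.909). These are descriptions over 15 kidneys that share groups, depth and scaling.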

How the data were processed

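Poly-A selected RNA from one kidney per mouse was sequenced. According to the study's methods and the submitters' processing notes, the authors trimmed reads with fastp, aligned them to mm10 with HISAT2 2.0.5, counted them per gene with featureCounts 1.5.0-p3 and deposited FPKM (fragments scaled by gene length and by the library), with no replicates pooled. The annotation release is not given in the sources used here.

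The deposited FPKM table held 54532 genes, of which 37 were not in GENCODE M21 (GRCm38, the same build as mm10), which gave symbols and exon lengths. FPKM times exon length moved in equal steps within a library, and 96.2% to 98.3% of low values were whole multiples of the step within 0.02. Totals of these units were 13647020 to 28884427 per library. Whether a unit is a read or a fragment could not be settled, so no counting interval is given, and the FPKM denominators were 0.518 to 2.3 times these totals. No 2 libraries held identical values.

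Groups were compared with limma 3.58.1 (R 4.3.3) on log2(FPKM + 1), 10 libraries per comparison, genes above 0 in at least 5, intensity trend, two-sided, with Benjamini-Hochberg adjustment. The authors tested counts with DESeq2, which FPKM do not allow, and their thresholds (adjusted p of 0.05, absolute log2 fold change of 1) were kept. The fit was tested on simulated data. A fold change on this scale understates that of low genes. The mice of different groups are different animals.

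The members and all lists were chosen with earlier results of these data known. Named were the 9 members, up to 4 genes per wider list and comparison (called genes by size, otherwise the smallest p), and the 3 genes most like Pck1 and Pkm. Promoters are from RefSeq and all 9 members matched, 13 windows in all. Hk1 shares 157 exon bases with Hk1os on the opposite strand and Pkm 767 with Gm49759, and whether counting used strand is not given in the sources used here. Alternatives were other pseudocounts, filters, scalings (TPM, nuclear genes brought to the same total, quantile, median centring), all 15 libraries in one fit, quality weights, no trend, a replicate block, voom on the recovered units, each library left out, and M mice 1 to 3 or 4 and 5 alone. One gene of a wider list is counted in its list but not reported by name here.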

Additional observations from a re-analysis of the deposited data

Results flagged for a closer look

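In 4 of 30 groups of 5 kidneys, one kidney's gap to its neighbour exceeded 0.71 of the group's whole range, Dixon's 95% critical value, and chance alone gives about 1 in 20 such groups. Pck1 in AA mouse 4 was at 46.6 FPKM against 10.8 to 15.8 FPKM in the other AA kidneys, a gap of 0.747 of the range on the log2 scale, and that kidney also had the most adipocyte marker RNA in AA, 43.9 FPKM summed against 9.53 to 15.7 FPKM. Khk in AA mouse 1 was at 7.68 FPKM against 12.6 to 14.3 FPKM, a gap of 0.790. Hk1 in C mouse 4 was at 2.82 FPKM against 4.97 to 5.36 FPKM, a gap of 0.876, and that kidney also had the most leukocyte and macrophage marker RNA in C, 144 FPKM summed against 21.6 to 36.6 FPKM. Hk1 in AA mouse 1 was at 0.465 FPKM against 1.82 to 2.66 FPKM, a gap of 0.714, and without that kidney Hk1 lost its call in AA vs. C. The causes were not tested.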

How the results depend on the processing

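Of 681 refitted member values, 620 kept their sign and side of the threshold, 26 gained a call, 18 lost one and 17 turned in sign. The 2 calls in M vs. C became 1 with a pseudocount of 0.01, genes above 0 in any library, median centring, no trend or voom, 0 with M mice 4 and 5 alone, and 6 with TPM or M mice 1 to 3 alone. Leaving out 1 library gave 0 to 3, with 0 without C mouse 5 or M mouse 3 and 1 without C mouse 2 or 4 or M mouse 1, 2 or 4. The 0 calls in AA vs. M became 2 with M mice 1 to 3 alone and 0 to 1 without 1 library, the 1 being G6pc without AA mouse 5. The 3 in AA vs. C became 7 with TPM and 2 to 4 without 1 library, where Pck1 joined without C mouse 1 or 3 or AA mouse 4. Within a kidney, leaving out 1 library moved the difference from -2.51 to -1.95 for M minus C, 0.46 to 0.90 for AA minus M and -1.80 to -1.23 for AA minus C, which list medians in place of means brought to -0.30. The causes were not tested, except that M mice 4 and 5 alone leave fewer samples.

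In M vs. C the sign turned for Pkm with TPM (-0.51) and M mice 4 and 5 alone (-0.39), and for Ldha with M mice 4 and 5 alone (-0.31). In AA vs. M, where none was called, it turned for Pck1 with median centring (-0.18), without M mouse 2 (-0.16) and without AA mouse 4 (-0.0096; -0.16 to 0.75 over the libraries left out), for Pcx without AA mouse 3 (0.00036; -0.40 to 0.00036), for Khk with median centring (-0.13), for Hk1 without M mouse 4 (0.0087), without AA mouse 1 (0.077; -0.25 to 0.077) and with M mice 1 to 3 alone (0.12), for Hk2 with quantile scaling (-0.10) and median centring (-0.22), for Pkm with M mice 4 and 5 alone (0.071), and for Ldha with quality weights (0.16) and M mice 4 and 5 alone (0.80). In AA vs. C it turned for Ldha with TPM (-0.57). TPM moved the median of all genes from -0.12 to -0.58 in M vs. C and from 0.09 to -0.39 in AA vs. C.

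With the mouse number as a replicate block, 2 members were called in M vs. C, 0 in AA vs. M and 4 in AA vs. C, the added call being Pck1 (limma adjusted p = 0.0314). The numbers name different animals, and the deviations of same-numbered kidneys correlated at -0.13 to 0.22, with 3 of 15 pairs over 0.1 and 3 of 15 libraries closest to their own number.

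Over all genes, 291 were called in M vs. C, against 1609 with TPM, 110 with a pseudocount of 0.01, 33 without the filter, 3404 with M mice 1 to 3 alone, 0 with M mice 4 and 5 alone (2489 with an unadjusted p under 0.05 by limma) and 4 without C mouse 5. In AA vs. M the 2533 calls, 91.6% of them higher, became 422 with TPM, and the share higher became 43.1% with median centring, 69.5% with quantile scaling and 27.8% against M mice 4 and 5 alone. In AA vs. C the 4346 calls, 51.6% higher, became 6785 with TPM (12.7% higher) and 7474 with a pseudocount of 0.1. Hk2, at 7 to 84 counted units in C, is limited by depth and was not tested under a mean FPKM of at least 1.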
